A study of Drosophila melanogaster with 6 samples.

Results

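The centromeric ends of X, 2L, 3L and 3R are the innermost stretches of these 4 chromosome sequences of Drosophila melanogaster, where the assembled arm runs up to the repeat-rich DNA around the centromere. Their replication timing was described in 10 kb windows that started every 2.5 kb. Windows were chosen by position alone, as those starting at or after 20900001 on X, 21500001 on 2L and 23000001 on 3L, and those ending at or before 1500000 on 3R, with a value above 0 in at least 1 library. The 4 ends held 2338 of the 53434 windows tested, or 4.38%, of which 554 lay on X, 578 on 2L, 609 on 3L and 597 on 3R. Another 92 windows inside the same limits were at 0 in all 6 libraries and were left out, 56 of them on X, 27 on 2L and 9 on 3L.

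All libraries came from Kc cells, a single female line grown from Drosophila embryos and labelled with the genotype se/e. Growing cells were exposed for 1 h to 50 µg/ml of BrdU, a thymidine analogue that is built into DNA while it is copied. They were then sorted by DNA content into Early S, Mid S and Late S fractions, and the BrdU-labelled DNA of each fraction was pulled down with an antibody and sequenced (Repli-seq). Each fraction had 2 libraries, and the 3 groups differ in the stage of S phase alone, with the same line and pulse and no untreated or mutant cells. The value of a window is in RPKM, reads scaled to the window's length and the library's size, and it is an average over sorted cells, in which more cells copying a window and more label per cell cannot be told apart.

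Eukaryotic chromosomes are copied in a set order during S phase. Open, gene-rich chromatin is generally copied early. The pericentric heterochromatin of Drosophila, packed with satellite repeats and transposons and marked by methylated histone H3 lysine 9 and HP1, is known as a late replicating compartment. The euchromatic arms pass into it over a transition zone, which the ends described here include in part, while the scaffolds XHet, 2LHet, 3LHet and 3RHet hold heterochromatic sequence not joined to the arms.

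The libraries held 1384200 to 2936097 reads, and a count of 0 allows up to 3 reads, or 0.102 to 0.217 RPKM depending on the library (counting error only). Replicates agreed closely in the ends, with Pearson's r across windows of 0.981 for Early S, 0.968 for Mid S and 0.957 for Late S. Windows are not independent of each other here, since neighbours share reads. A mean of under 20 reads per library was found in 10.1% of the windows of the ends, in 15.0% on X, 9.17% on 2L, 16.3% on 3L and 0% on 3R, against 0.341% to 0.798% in the rest of these arms. Distances below run from the inner end of the assembled sequence, not from the centromere itself.

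The 4 ends did not share one timing. Label in the end of 3L was mostly late, and that in the end of X was late towards the inner side. The end of 2L alternated between early and late stretches, and the end of 3R was mostly early to mid. Early and late stretches occurred in all 4 ends. The median window of the end of 3L had 1.53 and 1.37 RPKM in Early S, 2.93 and 3.13 in Mid S, then 4.15 and 4.55 in Late S. In the end of X the median was 3.85 and 3.88 RPKM in Early S, 6.76 and 7.27 RPKM in Mid S, with 6.52 and 7.01 in Late S. In both, every Late S library lay above every Early S library, and on X the Mid S and Late S libraries overlapped.

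The end of 2L had medians of 5.16 and 4.65 RPKM in Early S, 8.12 and 8.63 in Mid S, then 7.11 and 8.96 in Late S. The end of 3R went the other way, with 11.1 and 10.9 RPKM in Early S, 11.9 and 11.6 RPKM in Mid S, with 8.08 and 8.89 in Late S. There both Late S libraries lay below all 4 others. The level of a window also depends on how well its sequence can be aligned and on its copy number, which were not measured here. The comparisons that follow are therefore between fractions over the same set of windows. A median over an end can fall on a different window in each fraction, so a difference of medians does not compare fractions window by window.

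For each library, the median log2 value of an end was taken relative to the library's median over all windows, and Late S was set against Early S with an error that combines both SDs (2 libraries per fraction, no test, since the ends were chosen with earlier results known). The difference was 1.42 ± 0.0706 in the end of 3L, or 2.67-fold higher in Late S, with 1.35 to 1.48 over the pairs of libraries. It was 0.66 ± 0.0587 in the end of X (0.61 to 0.71) and 0.56 ± 0.185 in the end of 2L (0.39 to 0.72). In the end of 3R it was -0.52 ± 0.0476 (-0.57 to -0.48), or 1.44-fold lower in Late S. The order was therefore 3L, then X and 2L, then 3R, and X and 2L were not apart beyond their spread.

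That order for 2L depends on how an end is summarised. Taken as the median of the differences of single windows, relative to that of all windows, the end of 2L stood at -0.06, while X stood at 0.64, 3L at 1.08 and 3R at -0.63. For X the difference was 0.33 when windows below the 10th percentile of mean RPKM were left out. Quantile normalization between libraries gave 0.861 for 3L and -0.272 for 3R.

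Single windows were tested by limma on log2 RPKM across all 53434 windows, with calls at a Benjamini-Hochberg adjusted p of at most 0.05. Of the 2338 windows in the ends, 1101 (47.1%) were called higher in Late S and 742 (31.7%) higher in Early S, against 44.2% and 37.6% of all windows. As a whole, the ends thus sat near the background. The end of 3L had 64.0% of its windows called higher in Late S and 13.6% higher in Early S, and the end of X 53.6% and 30.0%. After quantile normalization the share of 3L called higher in Early S was 22.2%. In the end of 2L 42.7% were called higher in Late S and 33.0% higher in Early S. The end of 3R had 28.0% called higher in Late S and 50.6% higher in Early S.

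The rest of each arm was less one-sided than its end on X, 3L and 3R. The windows called for Late S, and after them those called for Early S, made up 43.9% and 42.5% of the rest of 3L, 39.6% and 44.7% of the rest of X, 48.1% and 37.6% of the rest of 2L, and 47.0% and 36.5% of the rest of 3R. The difference of medians, on the scale used above, was -0.09 ± 0.0347 in the rest of 3L, -0.22 ± 0.0271 in the rest of X, 0.24 ± 0.0550 in the rest of 2L and 0.10 ± 0.0579 in the rest of 3R. The end of 3L and the end of X were thus shifted towards Late S against their own arms and the end of 3R towards Early S, while on 2L the end and the rest of the arm both leaned to Late S by this measure. These shifts are given as values of 2 libraries per fraction and were not tested.

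The heterochromatin scaffolds were late on every arm. Their difference of Late S minus Early S was 2.12 ± 0.294 in XHet, 2.42 ± 0.0780 in 2LHet, 1.58 ± 0.129 in 3LHet and 2.84 ± 0.265 in 3RHet. The end of 3L, at 1.42, differed from its scaffold 3LHet by less than the sum of their errors in this measure. For Late S minus Mid S they were farther apart than that sum, at 0.69 ± 0.0829 in the end of 3L and 1.03 ± 0.157 in 3LHet. The end of 3R and the scaffold 3RHet lay on opposite sides of 0, and 28.0% of windows in the end of 3R against 83.2% in 3RHet were called higher in Late S. Windows with a mean of under 20 reads made up 39.1% of 3RHet, 34.8% of 3LHet, 60.5% of 2LHet and 18.5% of XHet, and their part in these values was not tested.

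**Figure D1:**
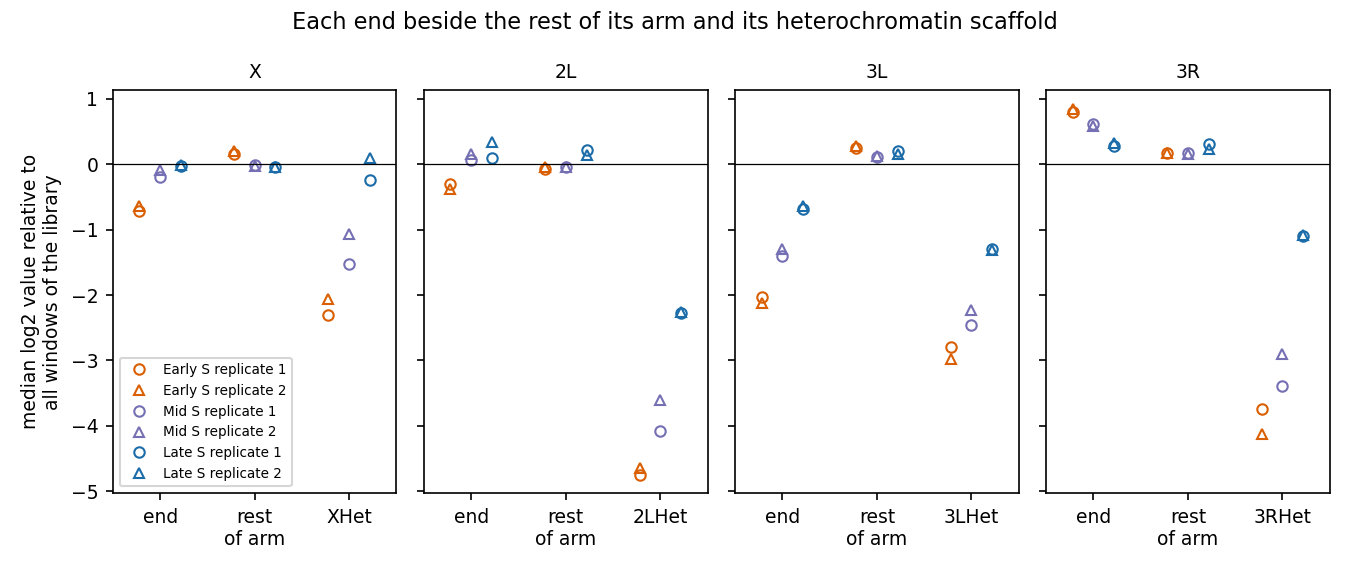
Median log2 RPKM of the windows of each end, the rest of its arm and its heterochromatin scaffold, relative to the median of all windows of the same library (y axis), 1 point per library in stage order. Late S points lie above Early S points in the ends of X, 2L and 3L and in all 4 scaffolds, and below them in the end of 3R.

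Mid S separated the ends further. Of the 2338 windows, 683 (29.2%) were called higher in Late S than in Mid S and 797 (34.1%) higher in Mid S, against 26.9% and 38.7% of all windows. In the end of 3R 9.88% were called higher in Late S and 60.3% higher in Mid S, whereas in the end of 3L the shares were 40.2% and 12.8%. Between Mid S and Early S, 1061 windows of the ends (45.4%) were called higher in Mid S and 230 (9.84%) higher in Early S, against 43.5% and 20.5% of all windows. The end of 3L had 54.5% called higher in Mid S and 3.45% higher in Early S.

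A fraction was called highest where it passed the test against each of the other two. Early S was called highest in 230 windows of the ends (9.84%, against 20.4% of all windows), Mid S in 62 (2.65%, against 2.43%) and Late S in 681 (29.1%, against 26.7%). Of the 62 windows called for Mid S, 51 lay in the end of 3R, which is 8.54% of that end, and 1 lay on X, 5 on 2L and 5 on 3L. The share called for Mid S rests on scaling, since it was 0.0855% when libraries were centred on their medians and 10.7% after quantile normalization. The share called for Early S was 22.5% when libraries were centred, and it was 3.76% without Mid S replicate 1, 4.32% without Mid S replicate 2, 3.93% without Early S replicate 2 and 4.83% without Early S replicate 1. The share called for Late S was 18.4% without Mid S replicate 1. The share called for Mid S was 1.5% and 1.15% without Early S replicates 1 and 2, and 0.599% and 0.642% without Mid S replicates 1 and 2. Shares under alternative settings are given for the ends alone throughout, so the shares of all windows above are no background for them. Without a test, the fraction with the highest mean in the end of 3R was Early S for 41.5% of windows, Mid S for 39.4% and Late S for 19.1%. In the end of 3L these shares were 14.3%, 17.4% and 68.3%, and over all windows they were 34.9%, 21.9% and 43.2%.

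Distance towards the centromere was read in bins of 100 kb counted from the inner end, each the mean of its non-overlapping windows, which share no reads. The ends held 61 such bins with at least 3 windows. In limma over the 1383 bins of the whole table, 32 of the 61 (52.5%) were called higher in Late S and 21 (34.4%) higher in Early S, against 50.4% and 40.7% of all bins. The libraries of Late S and Early S did not overlap in 58 of the 61 bins. That count was not made over all bins, so it cannot be read as a trait of the ends. Of the 16 bins on 3L, 12 were called for Late S and 2 for Early S. The counts were 9 and 5 of 15 bins on X, 7 and 7 of 15 on 2L, and 4 and 7 of 15 on 3R.

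**Figure D2:**
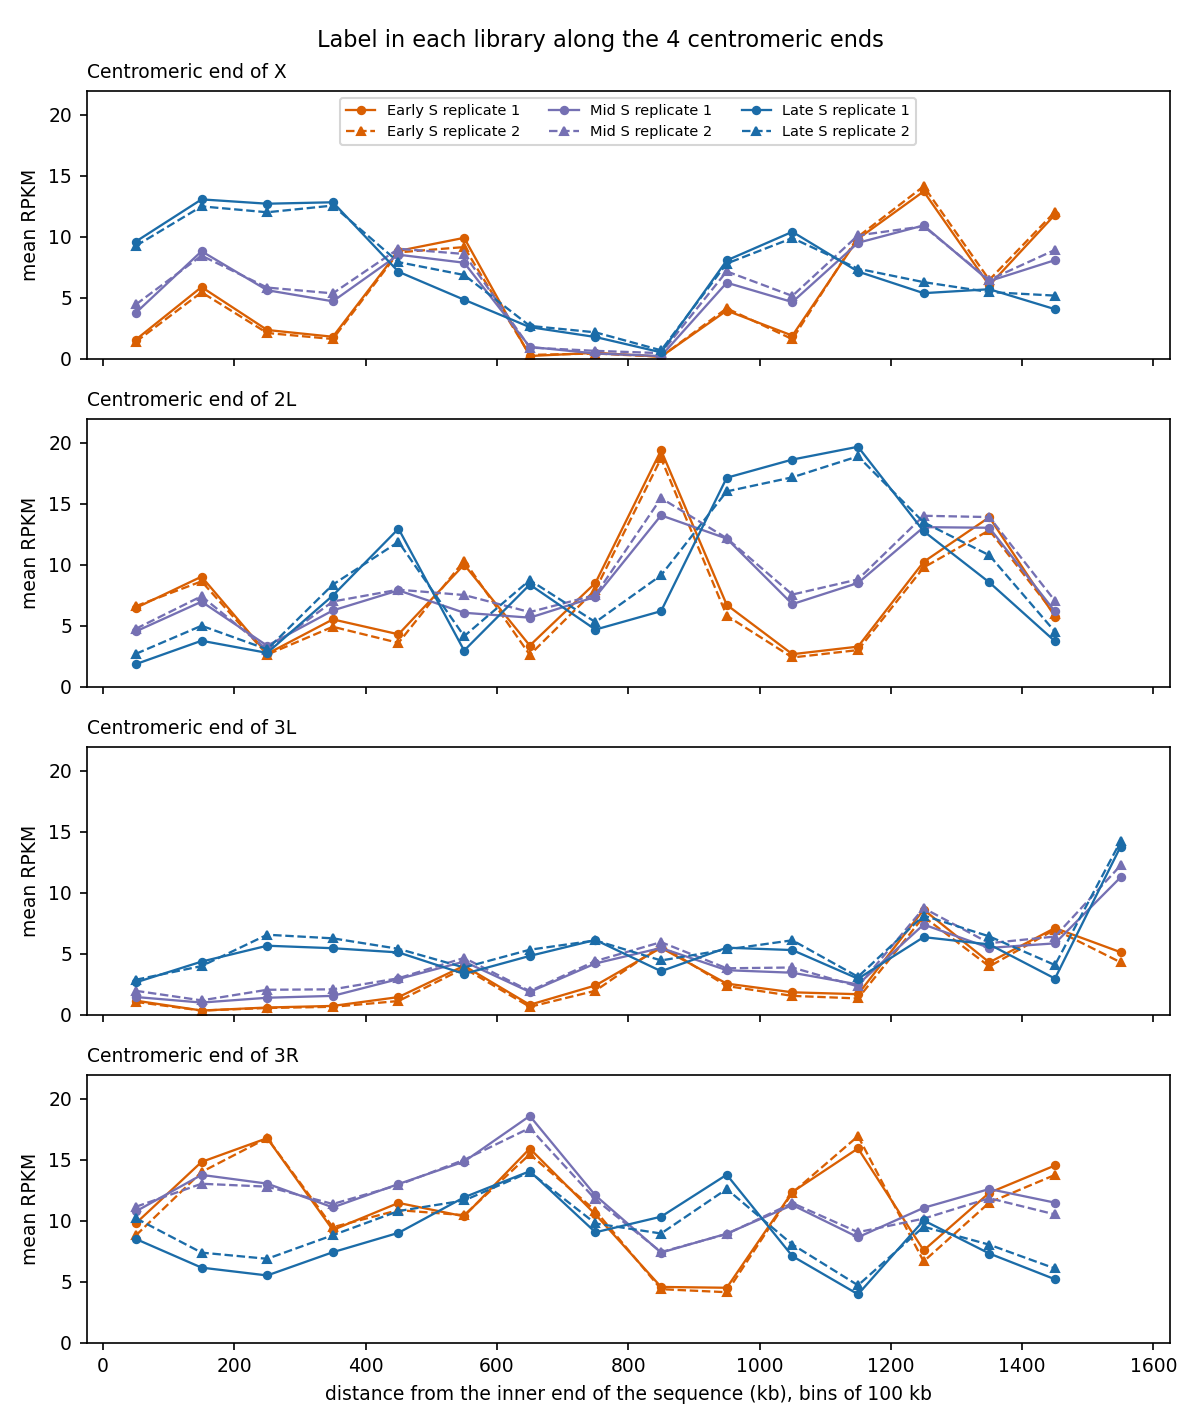
Mean RPKM of the non-overlapping windows of each 100 kb bin (y axis) against distance from the inner end of the sequence (x axis, kb), 1 line per library. Late S runs above Early S over the inner 400 kb of X and the inner 500 kb of 3L. On 2L and 3R, and farther out on X and 3L, the fractions cross several times.

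Lateness grew towards the inner end on X and 3L only as a broad trend. Spearman's rho of the difference, Late S minus Early S, with distance was -0.56 over the 15 bins of X and -0.60 over the 16 bins of 3L, and it was 0.32 on 2L and -0.05 on 3R (15 bins each). These are descriptions across bins of the same 6 libraries, with no test. Bins with fewer reads per window tended to have the larger difference on X (rho -0.78) and 3L (rho -0.65), and the part of depth in the trend was not tested.

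**Figure D3:**
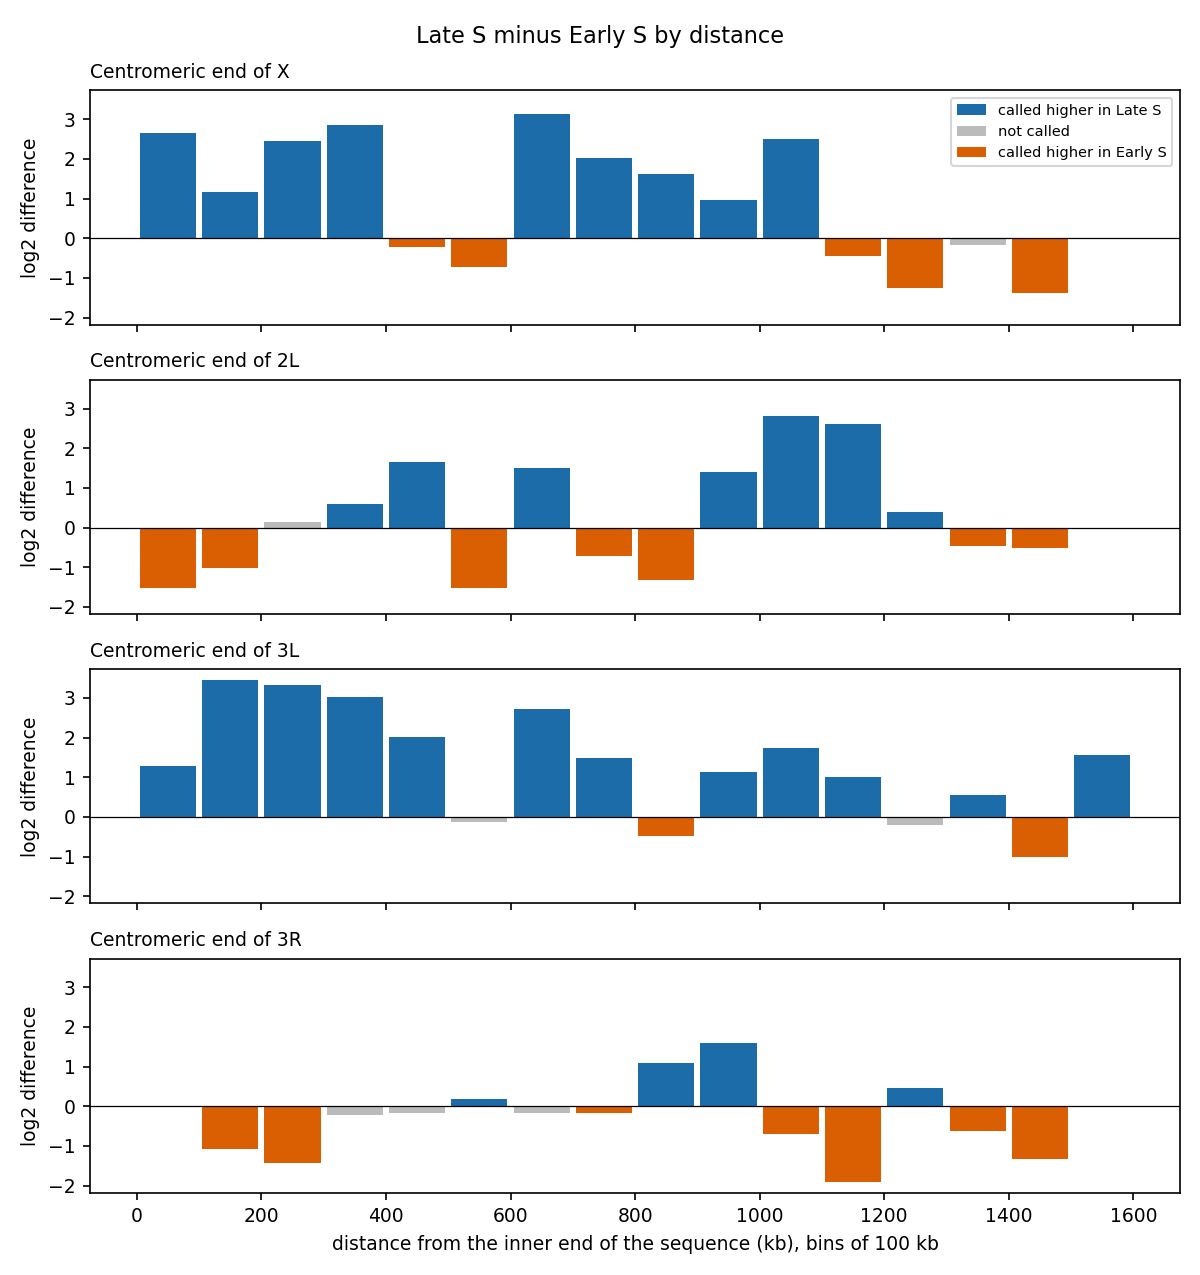
Log2 difference of Late S minus Early S in each 100 kb bin (y axis) against distance from the inner end (x axis, kb), coloured by the limma call. The outermost bar of 3L stands for 4 windows over 40 kb although it is drawn at full width, and the first bin of 3R, at 0.01, is too small to see.

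In the end of X most windows of the inner 500 kb were called for Late S, and the stretch from 600 to 900 kb had low RPKM. Beyond 1000 kb more windows were called for Early S than for Late S. The outer part was mixed, and a late run of 107.5 kb, 21302501 to 21410000, with all 40 of its windows called, lay in it (singled out after its values were seen). It averaged 2.29 and 1.97 RPKM in Early S, 5.19 and 5.91 RPKM in Mid S, with 10.7 and 10.4 in Late S. Over the 201 windows of the inner 500 kb, median label was 2.62 and 2.48 RPKM in Early S, 6.17 and 6.56 in Mid S, then 11.7 and 11.5 in Late S. Of these windows 86.6% were called higher in Late S and 9.95% higher in Early S. The libraries of the 3 fractions stood in stage order without overlap. On the scale used for whole ends, the difference of medians between Late S and Early S was 2.02 ± 0.0772. Over the 205 outer windows, beyond 1000 kb, the medians were 9.5 and 9.72 RPKM in Early S, 8.35 and 8.83 RPKM in Mid S, with 5.87 and 6.43 in Late S, with a difference of -0.79 ± 0.0783. Here 25.4% were called higher in Late S and 55.6% higher in Early S.

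The innermost bin of X, positions 22320001 to 22422827, had 1.57 and 1.40 RPKM in Early S, 3.77 and 4.45 in Mid S, then 9.62 and 9.26 in Late S. All 3 fractions were separate, in stage order, with a log2 difference of Late S minus Early S of 2.64 (limma, adjusted p = 8.97e-09). The outermost bin, 20920001 to 21020000, was the reverse, with 11.8 and 12.1 RPKM in Early S, 8.09 and 8.93 RPKM in Mid S, with 4.07 and 5.18 in Late S. Its difference of -1.37 (adjusted p = 3.88e-07) was the lowest of the end.

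Runs of called windows with a log2 difference of at least 1 show where the label changed along X. They are chosen by that difference, so their values describe them and test nothing. Runs were sought inside the ends only, so the shares they cover have no background from the rest of the arms. Late runs covered 45.8% of the end in 7 pieces and early runs 20.4% in 4 pieces. The longest late run, 22000001 to 22232500, spanned 232.5 kb, with all 90 of its windows called, and averaged 2.42 and 2.21 RPKM in Early S, 5.71 and 6.0 in Mid S, then 12.9 and 12.3 in Late S.

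A second late run, 22275001 to 22422827, reached the inner end itself over 147.8 kb, with 2.13 and 1.91 RPKM in Early S, 5.09 and 5.40 RPKM in Mid S, with 11.3 and 10.7 in Late S. Outside these, the innermost early run, 21917501 to 21975000, averaged 10.3 and 10.7 RPKM in Early S, 7.34 and 8.0 in Mid S, then 4.19 and 4.52 in Late S. The innermost of several changes between late and early on X thus fell between 21975000 and 22000001, about 423 to 448 kb from the inner end, and 5 of the 7 late runs lay farther out. The longest early run, 21140001 to 21272500, held 13.7 and 13.7 RPKM in Early S, 10.6 and 10.7 RPKM in Mid S, with 4.98 and 5.90 in Late S.

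The bin with the largest difference on X, 21760001 to 21820000, lay in the sparse middle stretch. It had only 0.227 and 0.317 RPKM in Early S, 0.976 and 0.917 in Mid S, then 2.59 and 2.70 in Late S, over 6 windows with a mean of 23.9 reads (difference 3.15, adjusted p = 1.81e-07). In the middle 500 kb as a whole, 45.9% of windows had a mean of under 20 reads, 48.0% were called higher in Late S and 21.6% higher in Early S. When windows of under 20 reads were left out, the share called higher in Early S was 40.0%, and the share called higher in Late S was 25% after quantile normalization.

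The end of 3L was the latest of the 4 and had the lowest median RPKM, a level that also depends on alignment and copy number. Over the 196 windows of its inner 500 kb, median label was 0.494 and 0.423 RPKM in Early S, 1.14 and 1.49 RPKM in Mid S, with 4.04 and 4.05 in Late S, and the difference of medians was 2.91 ± 0.115. In this zone 178 windows (90.8%) were called higher in Late S and 0 higher in Early S, with 29.6% of windows at a mean of under 20 reads. At an unadjusted p under 0.05 limma gave 0 windows higher in Early S, and voom weights on recovered reads again called 0, while quantile normalization called 0.51%. The middle 500 kb had a difference of 0.92 ± 0.0363, with 59.6% called higher in Late S and 15.7% higher in Early S, the second share being 29.3% after quantile normalization. Beyond 1000 kb it was 0.31 ± 0.196, with 43.7% and 24.2%.

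The longest late run of all 4 ends lay here, at 24095001 to 24450000, 93.6 kb from the inner end. It spanned 355 kb, 132 of its 136 windows were called, and it averaged 0.586 and 0.508 RPKM in Early S, 1.39 and 1.79 in Mid S, then 5.11 and 5.53 in Late S. Within it, the bin at 24340001 to 24440000 had the largest difference of any bin of the ends, 3.46 (limma, adjusted p = 2.84e-08), with 0.352 and 0.346 RPKM in Early S, 1.00 and 1.18 RPKM in Mid S, with 4.36 and 4.00 in Late S. Early S label in that bin was thus a small multiple of the 3-read limit for a window.

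Closer to the centromere the contrast was smaller again. The innermost bin of 3L, 24440001 to 24540000, had 1.16 and 1.06 RPKM in Early S, 1.46 and 1.97 in Mid S, then 2.66 and 2.88 in Late S (difference 1.29, adjusted p = 7.20e-05). The innermost late run, 24457501 to 24530000, averaged 0.587 and 0.518 RPKM in Early S, 1.01 and 1.24 RPKM in Mid S, with 1.99 and 2.26 in Late S, and stopped 13.6 kb short of the end of the sequence.

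Late runs covered 62.0% of the end of 3L in 9 pieces, and early runs 9.88% in 4. The innermost early run, 23665001 to 23695000, was 30 kb long and 848.6 kb from the inner end, with 6.38 and 7.33 RPKM in Early S, 3.51 and 3.94 in Mid S, then 2.33 and 2.70 in Late S. Its longest, 23070001 to 23130000, held 10.8 and 10.7 RPKM in Early S, 7.27 and 8.31 RPKM in Mid S, with 3.11 and 4.90 in Late S. It lay inside the bin with the lowest difference of this end, 23040001 to 23140000, at -1.01 (adjusted p = 3.65e-05), with 7.11 and 6.99 RPKM in Early S, 5.86 and 6.42 in Mid S, then 2.97 and 4.08 in Late S. The outermost bin, 23000001 to 23040000, was late again, with 5.13 and 4.31 RPKM in Early S, 11.3 and 12.3 RPKM in Mid S, with 13.8 and 14.2 in Late S (difference 1.57, adjusted p = 3.65e-08).

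On 2L the stretch nearest the centromere was early. The innermost bin, 22910001 to 23010000, had 6.47 and 6.62 RPKM in Early S, 4.54 and 4.76 in Mid S, then 1.86 and 2.71 in Late S. Its difference of -1.53 (limma, adjusted p = 3.41e-06) was the lowest of the end, and the libraries of each fraction stood apart from the others. The innermost early run, 22935001 to 22995000, began 16.5 kb from the inner end, with all 21 of its windows called, and averaged 6.80 and 7.22 RPKM in Early S, 3.64 and 4.28 RPKM in Mid S, with 1.52 and 2.07 in Late S. No late run lay inside it, the innermost being 22502501 to 22637500, 374.0 kb from the inner end, with 4.01 and 3.35 RPKM in Early S, 7.06 and 7.19 in Mid S, then 11.6 and 10.8 in Late S.

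The strongest late label of 2L sat about 1000 kb out. The run at 21780001 to 22090000 spanned 310 kb, 120 of its 121 windows were called, and it averaged 3.69 and 3.29 RPKM in Early S, 8.74 and 9.22 RPKM in Mid S, with 18.8 and 17.7 in Late S. Its bin at 21910001 to 22010000 had the largest difference of the end, 2.80 (adjusted p = 2.35e-09), with 2.67 and 2.40 RPKM in Early S, 6.78 and 7.56 in Mid S, then 18.6 and 17.2 in Late S. The next run inward was the longest early run, 22112501 to 22190000, with 23.5 and 22.9 RPKM in Early S, 16.5 and 17.8 RPKM in Mid S, with 7.13 and 10.3 in Late S. Label thus turned from early to late between neighbouring runs, and both runs had well over 100 reads per window.

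Zone differences, like those of whole ends, are relative to each library's median over all windows, while the calls used RPKM without centring. By zone, the inner 500 kb of 2L had a difference of -0.18 ± 0.175, with 33.5% of windows called higher in Late S and 29.8% higher in Early S. The middle 500 kb had 0.27 ± 0.281, with 43.7% and 47.2%. Both differences were within or close to their errors and were not tested, so no lean is read from them. The inner zone spans stretches of opposite sign. Its bins from 0 to 200 kb stood at -1.53 and -1.02, and that from 400 to 500 kb at 1.65. Beyond 1000 kb the difference was 1.42 ± 0.0383, with 51.1% called higher in Late S and 21.6% higher in Early S. The share called higher in Early S there was 13.2% without Early S replicate 1 and likewise without Late S replicate 1. The outermost bin of 2L, 21540001 to 21610000, had 5.76 and 5.94 RPKM in Early S, 6.18 and 7.05 in Mid S, then 3.73 and 4.52 in Late S (difference -0.51, adjusted p = 0.00215). Late runs covered 37.7% of the end in 3 pieces and early runs 24.5% in 6.

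The end of 3R was labelled early to mid over most of its inner 500 kb and beyond 1000 kb. Its middle 500 kb leaned to Late S, and a short late tip lay at the inner end. The late tip, 1 to 25000, had 5.03 and 3.82 RPKM in Early S, 10.4 and 11.3 RPKM in Mid S, with 13.9 and 15.2 in Late S, with all 7 of its windows called and a mean difference of 1.76. The bin that holds it, 1 to 100000, was not called, with 9.80 and 8.81 RPKM in Early S, 10.8 and 11.2 in Mid S, then 8.51 and 10.2 in Late S (difference 0.01, limma, adjusted p = 0.963). The innermost early run followed at 117501 to 172500, with 18.1 and 16.5 RPKM in Early S, 15.7 and 15.1 RPKM in Mid S, with 6.78 and 7.92 in Late S.

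Over the 198 windows of the inner 500 kb of 3R, median label was 12.4 and 11.6 RPKM in Early S, 12.8 and 12.7 in Mid S, then 7.27 and 8.45 in Late S. Of these windows 9.09% were called higher in Late S and 66.7% higher in Early S, and the difference of medians was -0.76 ± 0.0961. The share called higher in Late S was 5.56% when libraries were centred and 5.05% without Early S replicate 2. Here no window had a mean of under 20 reads. By 100 kb bins the early label lay mainly from 100 to 300 kb, with differences of -1.09 and -1.44. The bins from 300 to 500 kb stood at -0.21 and -0.18 and were not called (limma, adjusted p = 0.051 and 0.0948). Mid S was the fraction with the highest mean in 8 of the 15 bins of the end of 3R, a description with no test. No such count is given for all bins, and this one used RPKM without centring. On that scale Mid S also had the highest median over all windows, 7.75 RPKM against 6.22 for Early S and 6.88 for Late S. Relative to each library's median over all windows, Early S led in the end of 3R at 0.82, ahead of Mid S at 0.60 and Late S at 0.30. The middle 500 kb leaned to Late S, with a difference of 0.46 ± 0.117 and 58.0% of windows called higher in Late S against 19.5% higher in Early S. Beyond 1000 kb it was -1.09 ± 0.0786, with 16.6% and 65.8%.

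The late label of this middle 500 kb of 3R lay mainly in its outer part, between early stretches. The bins from 500 to 800 kb had differences of 0.18, -0.16 and -0.18, and that from 800 to 900 kb had 1.09. The longest late run of 3R, 815001 to 1007500, spanned 192.5 kb with all 74 of its windows called, and averaged 4.30 and 4.02 RPKM in Early S, 7.93 and 7.89 RPKM in Mid S, with 12.4 and 10.9 in Late S. The bin at 900001 to 1000000 had the largest difference of the end, 1.60 (adjusted p = 1.43e-08), with 4.52 and 4.15 RPKM in Early S, 8.95 and 8.92 in Mid S, then 13.8 and 12.6 in Late S. The longest early run was the next run outward, at 1052501 to 1200000, with 16.4 and 17.2 RPKM in Early S, 9.13 and 9.57 RPKM in Mid S, with 4.06 and 5.11 in Late S.

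The bin at 1100001 to 1200000 had the lowest difference of any bin of the 4 ends, -1.92 (adjusted p = 8.24e-09), with 15.9 and 17.0 RPKM in Early S, 8.66 and 9.07 in Mid S, then 3.98 and 4.72 in Late S. Early S was there more than 3 times Late S in every pair of libraries. The outermost bin, 1400001 to 1500000, was also early, with 14.5 and 13.8 RPKM in Early S, 11.5 and 10.5 RPKM in Mid S, with 5.21 and 6.10 in Late S (difference -1.32, adjusted p = 1.16e-07). Late runs covered 19.3% of the end of 3R in 4 pieces and early runs 32.3% in 6.

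**Figure D4:**
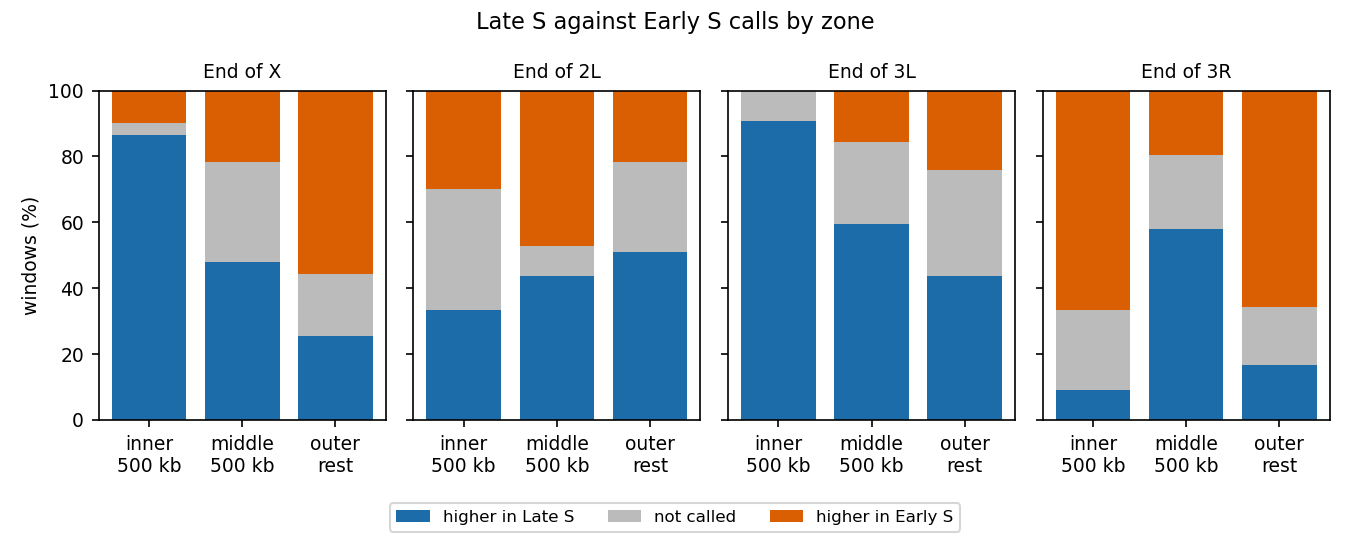
Percent of windows (y axis) called higher in Late S, not called, and called higher in Early S by limma in the inner 500 kb, the middle 500 kb and the outer rest of each end. The inner zones hold 86.6% and 90.8% of windows called higher in Late S on X and 3L, 33.5% on 2L and 9.09% on 3R.

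Side by side, the inner 500 kb of the 4 ends differed far more than the ends did over their whole length. Their difference of medians was 2.91 ± 0.115 on 3L, 2.02 ± 0.0772 on X, -0.18 ± 0.175 on 2L and -0.76 ± 0.0961 on 3R (SDs of 2 libraries per fraction combined). Each pair of neighbours in this order was apart by more than the sum of their errors. Beyond 1000 kb the order was 2L at 1.42 ± 0.0383, 3L at 0.31 ± 0.196, X at -0.79 ± 0.0783 and 3R at -1.09 ± 0.0786.

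On X, 3L and 3R the windows on either side of the outer limit overlap and share most of their reads, so their values are given as a description only. The last window inside the end of X, 20900001 to 20910000, had a difference of Late S minus Early S of -2.58, and the next one outside, 20897501 to 20907500, -2.50. At the limit of 3L the values were 1.33 inside and 1.20 outside, and at that of 3R -0.78 inside and -0.70 outside. On 2L the nearest tested windows on both sides, which do not overlap, held almost no reads. At the inner limit, 5 windows of X, 2L and 3L overhang the sequence end but are scaled to 10 kb, which lowers their RPKM in all fractions alike. The innermost X window, for instance, had 0.545 and 0.264 RPKM in Early S, 1.28 and 0.505 in Mid S, then 2.91 and 1.52 in Late S, and its difference of 2.36 was close to the 2.37 of the innermost window inside the sequence.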

How the data were processed

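Repli-seq label of 6 Kc libraries, 2 each of Early S, Mid S and Late S, was analysed. The authors deposited RPKM values per 10 kb window every 2.5 kb, per the file headers. Not given in the sources used here are the aligner, its treatment of repeats, the genome build and any input correction. Sequence names and lengths are of the Release 5 type, coordinates are as deposited and counted from 1, and no gene or sequence is given because the only gene table used belongs to Release 6. Combined files were not used. The labels name no separate cultures for replicates, and the p-values therefore cover only the variation among these 6 libraries, possibly technical. The fraction of Mid S replicate 1 is from its title.

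Of 55900 windows, 2466 without a read in any library were dropped. RPKM was put on the log2(RPKM + 0.0341) scale, the pseudocount being the lowest value above 0, which shrinks fold changes of sparse windows. The 3 fraction means were fitted to all windows with limma 3.58.1 under R 4.3.3 (lmFit, eBayes with trend, 3 residual and 10.7 prior degrees of freedom, two-sided, Benjamini-Hochberg over the whole table), and likewise to 100 kb bins. The code was tested on simulated data. All values were whole multiples of 1 read within 0.02 reads (100%), which gave the library reads. A run joined windows called in 1 direction whose log2 difference reached 1, bridged gaps of up to 2 windows and held 5 windows or more. Named regions are the longest and innermost runs of each kind, the innermost, outermost, highest and lowest bins, and the limits of each end. The ends, these rules and the tests were chosen with earlier results of these data known. Alternatives covered pseudocount, scaling, filters, a replicate block, weights from recovered reads, window overlap, bin width and leaving out each library. Python 3.11.15, pandas 2.3.3, NumPy 2.4.6, SciPy 1.17.1 and matplotlib 3.10.9 were used.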

Additional observations from a re-analysis of the deposited data

How the results depend on the processing

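Over the 4 ends pooled, the shares of windows and of 100 kb bins called between Late S and Early S stayed within 1.5 times their values under every alternative run. Single ends and zones moved further. After quantile normalization the share called higher in Early S was 22.2% in the end of 3L, 29.3% in its middle zone and 0.51% in its inner zone, and the share called higher in Late S in the middle zone of X was 25%. The share called higher in Early S in that zone of X was 41.6% above the 10th percentile of RPKM and 40.0% with at least 20 reads. In the inner zone of 3R the share called higher in Late S was 5.56% with libraries centred and 5.05% without Early S replicate 2. In the outer zone of 2L the share called higher in Early S was 13.2% without Early S replicate 1 or without Late S replicate 1. Of the 53 bins called, none took the opposite call under the alternatives run on 100 kb bins. Quantile normalization left 6 of them uncalled, and 2, in the sparse stretch of X, then had the opposite sign without being called. Without 1 library, 50 to 53 kept their call.

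The summary difference of an end moved more. For 2L it was 0.0731 as a mean over windows and turned to -0.0644 as the median of single-window differences, a summary added after seeing the data. For 3L it was 1.56 without centring, 1.34 over non-overlapping windows, 1.25 with 10 times the pseudocount, 1.19 with at least 20 reads, 1.08 by single windows, 1.05 as a mean, 1.01 above the 10th percentile of RPKM and 0.86 after quantile normalization. For X it was 0.80 without centring, 0.58 over non-overlapping windows, 0.57 as a mean, 0.44 after quantile normalization, 0.41 with at least 20 reads and 0.33 above the 10th percentile. For 3R it was -0.63 by single windows, -0.59 as a mean, -0.47 with at least 20 reads, -0.46 above the 10th percentile, -0.38 without centring and -0.27 after quantile normalization. Leaving out 1 library gave 0.62 to 0.70 for X, 0.43 to 0.68 for 2L, 1.37 to 1.46 for 3L and -0.55 to -0.50 for 3R.

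Comparisons with Mid S depended on scaling and on single libraries. With libraries centred, 22.5% of windows were higher in Early S than in Mid S, 22.5% were called for Early S above both others and 0.0855% for Mid S. Quantile normalization gave 28.7% higher in Mid S than in Early S and 10.7% called for Mid S, and voom weights on recovered reads 4.15%. Leaving out 1 library gave ranges of 18.4% to 28.5% (higher in Late S than in Mid S), 19.1% to 34.6% (higher in Mid S than in Late S), 32.5% to 44.2% (higher in Mid S than in Early S) and 3.85% to 12.6% (higher in Early S than in Mid S). For the fraction above both others they were 3.76% to 12.5% for Early S, 0.599% to 3.89% for Mid S and 18.4% to 28.1% for Late S. For Late S against Early S they were 42.4% to 45.9% and 27.1% to 32.2% of windows, and 50.8% to 52.5% and 31.1% to 41.0% of bins. The cause was not tested.

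The labels do not say that equal replicate numbers were made together, and deviations of same-numbered libraries in the ends correlated at -0.07, -0.05 and 0.29. With a replicate block 47.2% of windows were called higher in Late S and 32.1% higher in Early S, and the block moved none of the pooled, end or zone shares past 1.5 times. Depth limits the sparse middle of X and the inner 500 kb of 3L most.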
